A study of Mus musculus with 2 samples.

Results

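T cells of the ischaemic mouse adductor muscle were compared between WT mice and Apoa1bp-/- mice (labelled AIBP-KO, called knockout here) on day 7 after femoral artery ligation. They were chosen by detected transcripts: a barcode counted as a T cell when at least 2 of Cd3e, Cd3d, Cd3g and Trac had a unique molecular identifier (UMI, 1 captured mRNA molecule) and none of Ncr1, Cd79a, Csf1r, Pdgfra and Cdh5 had one. The 5 excluding genes mark NK cells, B cells, macrophages, fibroblasts and endothelium. The rule found 161 WT and 149 knockout T cells, 310 of 23001 barcodes that had at least 200 genes and at most 10% mitochondrial UMIs.

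Apoa1bp, now named Naxe, encodes AIBP, which binds apolipoprotein A-I and is also an epimerase that repairs damaged NAD(P)H. Ligation of the femoral artery cuts the main blood supply of the thigh, and the adductor is the muscle in which collateral vessels enlarge. All mice of both genotypes had the surgery, on 4 knockout mice and 4 control littermates, and there was no library from unligated muscle. There was 1 droplet library per genotype, from all cells of the digested muscle, and whether cells of several mice were pooled is not given. The differences below therefore have no replicate check and no test, and all intervals are 95% exact intervals for counting error only.

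T cells recognise antigen through a receptor of an alpha and a beta chain, or of a gamma and a delta chain, joined to the CD3 chains that signal into the cell. CD8 cells kill target cells with granzymes and perforin, CD4 cells direct other cells through cytokines, and regulatory T cells, which depend on Foxp3, restrain both. Gamma-delta T cells that make interleukin-17 settle in tissues early in life, and skeletal muscle is one of the tissues in which T cells gather after injury.

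The WT library held 80954991 UMIs in 14035 barcodes and the knockout library 80444279 UMIs in 9392 barcodes. Median depth per filtered barcode was 4461 UMIs for WT and 6825 for knockout. The libraries shared 43 barcode sequences, and 0 of the T cells were among them. T cells were smaller than the rest, with a median of 1824 UMIs and 897 genes for WT cells and 2643 UMIs and 1149 genes for knockout cells. All T cells together held 395031 WT and 571576 knockout UMIs. Since the knockout cells were deeper, shares of cells with a given transcript were compared after each cell was thinned to 1000 UMIs, which 139 WT and 144 knockout cells reached.

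The targeted gene was not detected in the knockout. Naxe had 11 UMIs in 9 WT T cells, 27.8 CPM (counts per 1000000 UMIs of the T cells), and 0 UMIs in knockout T cells, a count that allows at most 5.25 CPM. In barcodes with Csf1r the WT had 1629 Naxe UMIs and the knockout 0.

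T cells were 1.16% of filtered WT barcodes (0.992 to 1.36) and 1.63% of filtered knockout barcodes (1.38 to 1.91). The ratio of knockout to WT was 1.40 (1.11 to 1.76). It ran from 1.26 to 1.73 over the alternative rules, and its lowest value came without cells that carried NK cell transcripts. A share of barcodes also depends on how many other cells were caught, and 1 library per genotype gives no spread between mice.

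The genes that chose the cells are given as a description only. Cd3d was at 1002 CPM in WT and 997 in knockout T cells, Cd3g at 848 and 1050, Trac at 582 and 646, and Cd3e at 524 and 289. Members with exactly 2 of the 4 genes numbered 53 in the WT and 25 in the knockout, and Trbc1 or Trbc2, the constant parts of the beta chain, was found in 77.4% and 88% of them. Barcodes just outside the rule, with exactly 1 of the 4 genes and no excluding gene, numbered 59 and 47, and 33.9% and 34.0% of them had Trbc1 or Trbc2. The excluding genes removed a further 77 WT and 58 knockout barcodes with 2 or more of the 4 genes, of which 54 and 34 had Csf1r.

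Genes outside the rule marked the cells as T cells in both libraries. Among genes at 50 CPM or more, those with the highest ratio of T cells to all other barcodes were Cd6, Cd8a, Cxcr6, Cd5, Bcl11b and Trbc2. Cd6, a surface receptor that tunes T cell receptor signals, was at 124 CPM in WT and 84.0 in knockout T cells, at least 322 times its level elsewhere. Bcl11b, a transcription factor that holds T cell identity, was at 251 and 208 CPM. Cxcr6, the receptor for the chemokine Cxcl16 and a mark of tissue-resident T cells, was at 213 and 261 CPM. Themis, Lat, Cd8b1 and Ctla4 followed among the 15 highest.

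Transcripts of other lineages were present in the T cells, mostly below their level in all other barcodes. The 10 macrophage markers summed to 4774 CPM in WT and 2357 in knockout T cells, against 29303 and 27800 CPM in all other barcodes. The 7 fibroblast markers summed to 5136 and 4696 CPM, and the 3 cells with most of them held 1060 of 2029 WT and 2211 of 2684 knockout UMIs. The 8 muscle markers summed to 370 and 738 CPM, with 282 of the 422 knockout UMIs in 3 cells. The 5 erythrocyte markers summed to 332 and 29.7 CPM, against 644 and 303 elsewhere. The 6 dendritic cell markers summed to 106 and 33.2 CPM, against 85.7 and 53.8 elsewhere, so they were higher in WT T cells than in the other WT barcodes, with 27 of 42 UMIs in 3 cells. The 6 B cell markers summed to 119 and 71.7 CPM, against 184 and 190 elsewhere, with Ms4a1 and Pax5 at 0 in both. In all, 11 WT and 6 knockout T cells had over 2% of their UMIs in markers of other lineages, and 9 and 2 were called doublets by Scrublet.

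CD8 cells were the largest subset that could be named in the WT. Of the thinned WT T cells, 35 of 139 had Cd8a or Cd8b1 and no Cd4, or 25.2% (18.2 to 33.2), and in the knockout 32 of 144 did, or 22.2% (15.7 to 29.9). Cells with Cd4 alone were 9 in the WT, 6.47% (3.0 to 11.9), and 4 in the knockout, 2.78% (0.762 to 6.96). Foxp3 was found in 2 cells of each, 1.44% (0.175 to 5.10) and 1.39% (0.169 to 4.93). The intervals of these 3 subsets overlapped between genotypes. Neither Cd4, Cd8a, Cd8b1 nor Trdc was detected in 67.6% of WT and 61.8% of knockout cells, so most thinned T cells could not be placed.

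The shares depended on depth. Without thinning, 39.1% of WT and 29.5% of knockout T cells had Cd8a or Cd8b1 alone, and 11.2% and 14.1% had Cd4 alone. Cd8a had a low background in barcodes of other lineages, and Cd4 a higher one in macrophage-marked barcodes. At 1000 UMIs, Cd8a was found in 0 of the fibroblast-marked (Pdgfra) barcodes of either library and in 0.0381% of WT macrophage-marked (Csf1r) barcodes. Cd4 was found in 1.39% of WT and 2.42% of knockout macrophage-marked barcodes, whose median depth before thinning was 4650 and 6987 UMIs. The knockout value was close to the 2.78% of thinned knockout T cells with Cd4 alone. In fibroblast-marked barcodes Cd4 was found in 0% (WT) and 0.0951% (knockout), well below that share. At 1500 UMIs the knockout T cell share was 7.14%. Whether the macrophage-marked barcodes made Cd4 themselves was not tested.

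**Figure D1:**
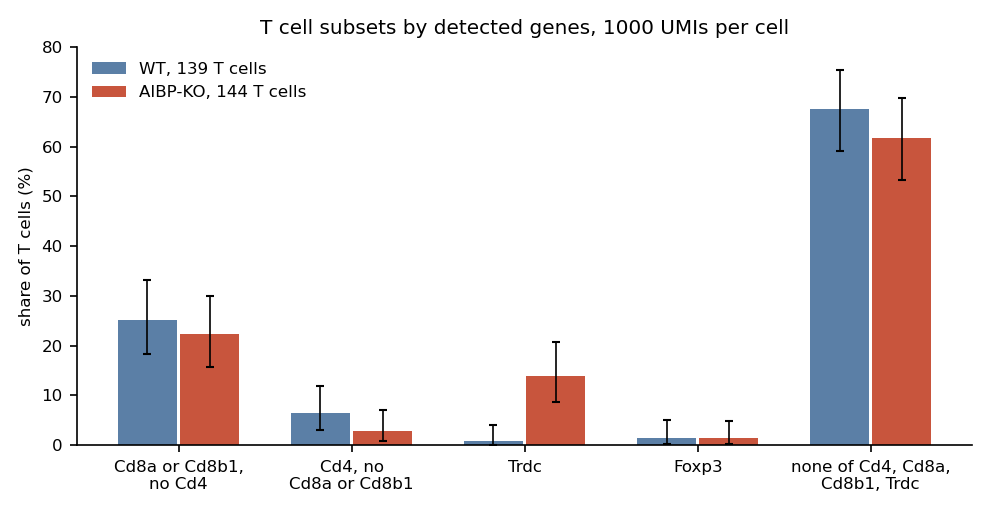
Share of T cells in each subset after thinning to 1000 UMIs per cell, for 139 WT and 144 knockout cells, with 95% exact binomial intervals. Trdc was found in 0.719% of WT and 13.9% of knockout cells, with intervals that did not overlap, while the intervals of the Cd8, Cd4 and Foxp3 subsets did.

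The delta chain set the genotypes apart. Trdc, which encodes the constant part of the delta chain, was found in 1 thinned WT cell, 0.719% (0.0182 to 3.94), and in 20 thinned knockout cells, 13.9% (8.69 to 20.6). Without thinning it was found in 4 of 161 WT cells, 2.48% (0.681 to 6.24), and in 25 of 149 knockout cells, 16.8% (11.2 to 23.8). Thinned fibroblast-marked barcodes had Trdc in 0.0400% (WT) and 0.190% (knockout), and macrophage-marked barcodes in 0. Their median depths before thinning were 5068 and 9153 UMIs for fibroblast-marked barcodes, above those of the T cells. Trdc was not particular to T cells: without thinning it was found in 17.6% of WT and 27.8% of knockout barcodes with Ncr1.

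Genes of the gamma-delta T cells that make interleukin-17 had their UMIs in the same few cells. In knockout T cells with Trdc the scavenger receptor Scart1, used as a marker of this lineage, was found in 21 of 25 cells, and in the WT in 3 of 4. The cytokine gene Il17a had 62 UMIs in 10 knockout T cells, and 61 of these UMIs lay in 9 cells that also had Trdc. In the WT Il17a had 3 UMIs, all in 1 cell without Trdc.

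Per library, Trdc had 9 UMIs in WT T cells (22.8 CPM) and 149 in knockout T cells (261 CPM), a ratio of 11.4 (5.87 to 25.5). Scart1 had 7 and 66 UMIs, a ratio of 6.52 (2.99 to 16.8). Il17a was at 7.59 and 108 CPM, a ratio of 14.3 (4.67 to 71.1), but 1 knockout cell held 31 of the 62 UMIs. The levels thus stood apart by more than counting error, and for Il17a by cells few enough that 1 of them weighed on the ratio.

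The gamma and delta chains pointed the same way. Trdv4, a variable segment of the delta chain, had 0 UMIs in the WT and 31 in 16 knockout cells, at least 7.14-fold higher in CPM when the WT was set at the 3 UMIs that a count of 0 allows. All 16 cells had Trdc. Trgc1, a constant gene of the gamma chain, had 9 and 57 UMIs, a ratio of 4.38 (2.15 to 10.1), and Trgc2 had 3 and 30 UMIs, a ratio of 6.91 (2.15 to 35.4). These gamma genes are near copies of each other, and how reads were split between them is not known. No other delta variable segment than Trdv4 was detected. Of the gamma variable segments, Trgv2 had 3 UMIs in 3 WT cells and 16 in 13 knockout cells, 6 of which had Trdc. Trgv6 had 1 UMI in the WT and 6 in 4 knockout cells, all with Trdc.

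Receptors and factors of this lineage were sparse. The interleukin-23 receptor gene Il23r had 0 and 7 UMIs, the latter in 6 cells. Sox13, an early factor of these cells, had 0 and 9 UMIs. Blk, a Src family kinase, had 7 and 33 UMIs, a ratio of 3.26 (1.42 to 8.73). The muscle alpha-actinin gene Actn2 had 7 UMIs in 6 WT cells and 49 in 27 knockout cells, a ratio of 4.84 (2.18 to 12.7), and 34 of the 49 lay in cells with Trdc. Il17f was at 0 in both.

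Few cells without Trdc carried the same genes. Of 6 genes (Scart1, Blk, Sox13, Il23r, Il17a and Il1r1), at least 2 were found in 19 of 25 knockout and 2 of 4 WT cells with Trdc. Without Trdc, 1 of 124 knockout cells (0.806%) and 1 of 157 WT cells (0.637%) reached 2. Trac was found in 7 of the 25 knockout and 0 of the 4 WT cells with Trdc, and Trbc2 in 20 and 2. Cd4 was found in none of these cells, and Cd8a in 1 knockout cell.

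Other genes of the subset lists were found in the cells with Trdc. In the 25 knockout cells Cxcr6 was found in 20, with 67 of the 149 Cxcr6 UMIs of all knockout T cells. Il7r, the receptor for interleukin-7, was found in 21, the chemokine receptor gene Ccr2 in 18, and Tnf, the gene of tumour necrosis factor, in 12, with 49 of its 69 UMIs. Of residency genes, Cd69 was found in 16, Itga1 in 2 and Itgae in 1. The interferon-gamma gene Ifng was found in none of them. The granzyme gene Gzma was found in 3, with 80 of the 255 Gzma UMIs of all knockout T cells. In the 4 WT cells Cxcr6 was found in 1, Il7r in 3, Ccr2 in 1 and Tnf in 2. Across all T cells Cxcr6 had a ratio of 1.23 (0.932 to 1.62), and without the Trdc cells 0.756.

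**Figure D2:**
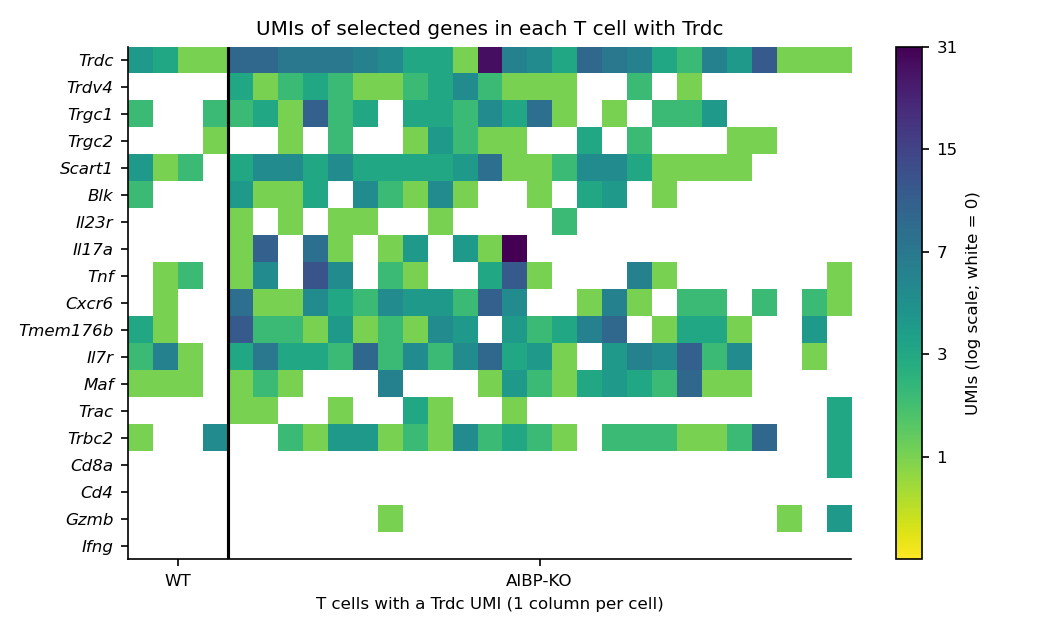
UMIs of 19 genes in each T cell with Trdc, 1 column per cell, 4 WT and 25 knockout. Scart1 was found in 3 of 4 WT and 21 of 25 knockout cells, and Il17a in 0 and 9.

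Barcodes left out by the rule also held these genes, but the direction was not the same in all of them. Among barcodes with 2 or more of the 4 T cell genes and an excluding gene, Trdc was found in 4 of 77 in the WT (5.19%) and 16 of 58 in the knockout (27.6%). Il17a had 11 UMIs in 2 of these WT barcodes and 63 in 7 of these knockout barcodes. Just outside the rule, with 1 of the 4 genes, Trdc was in 5 of 59 WT (8.47%, 2.81 to 18.7) and 2 of 47 knockout barcodes (4.26%, 0.520 to 14.5). Of them, 4 and 2 had Scart1. The direction there was opposite to that in the T cells, with overlapping intervals. In the WT these 5 barcodes outnumbered the 4 T cells with Trdc. How many cells with Trdc the rule missed in each library was not tested, and thinning the chosen cells does not bear on it. Barcodes with Ncr1 had Trdc in 12 of 68 (WT) and 22 of 79 (knockout), with Scart1 and Il17a in none of those. Over all filtered barcodes Trdc together with Scart1 was found in 9 WT and 32 knockout barcodes.

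V segments of alpha-beta cells were spread over many genes. A Trbv segment was found in 24 WT and 21 knockout T cells, over 14 and 12 of 35 segments, and the most used segment was in 4 cells. Trav segments were found in 9 and 15 cells, at most 2 per segment. Reads near the transcript's end seldom reach a V segment, so these counts bear on the cells with a read there only.

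Across all genes, 3251 were at 50 CPM or more in either library. Of these, 394 (12.1%) were at least 1.5-fold higher in knockout T cells and 455 (14.0%) at least 1.5-fold lower, and the median log2 ratio was -0.02. These shares are what any list below is to be read against. Log2 ratios carried a prior of 0.5 counts. Several lists share genes.

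The gamma-delta genes described above are part of 2 of these lists. Of 13 gamma-delta receptor genes 4 were measured, and all 4 (Trdc, Trdv4, Trgc1 and Trgc2) were at least 1.5-fold higher, with a median log2 ratio of 3.02, or 2.71 with Trdv4 at its bound. Of 18 Th17 and gamma-delta 17 genes 9 were measured, 6 were higher and 0 lower, with a median of 0.62. The 6 were Il17a, Scart1, Actn2, Blk, Tmem176b and Tmem176a, the last 2 being membrane proteins that macrophages also make. Tmem176b had 60 and 134 UMIs, a ratio of 1.54 (1.13 to 2.13), while the factors Maf and Rora had ratios of 0.878 and 0.881. Without the cells with Trdc the median of this list was -0.50 over 5 measured genes.

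**Figure D3:**
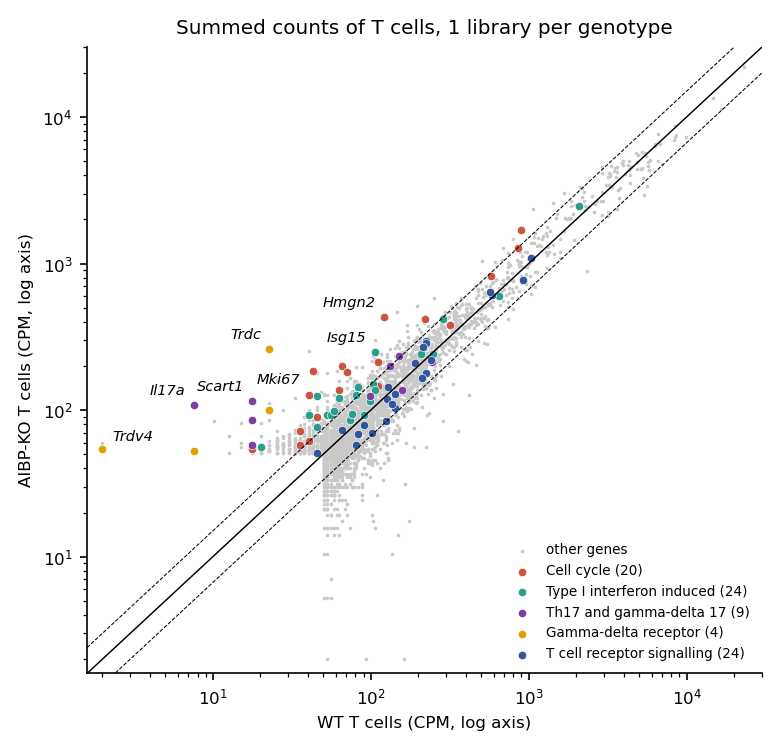
Level of each gene in WT and knockout T cells in CPM, on log axes, for 3251 genes, with genes at 0 or under 2 CPM drawn at 2 and dashed lines at 1.5-fold. Trdc (22.8 against 261 CPM) and Il17a (7.59 against 108 CPM) lie far above the upper line.

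The listed genes of T cell receptor signalling differed by less than 1.5-fold. Cd3e, a gene of the rule at 524 CPM in WT and 289 in knockout T cells, was not among them. Of 24 measured genes of T cell receptor signalling, 0 were 1.5-fold higher and 0 lower, with a median log2 ratio of -0.11. Lck, the kinase that starts the signal, was at 240 CPM in WT and 219 in knockout cells, a ratio of 0.909 (0.691 to 1.20). Lat, its scaffold, was at 223 and 289 CPM, and Trbc2 at 1038 and 1086 CPM, a ratio of 1.05 (0.923 to 1.19). Cd8a had 76 and 83 UMIs, a ratio of 0.755 (0.546 to 1.04), and Cd4 had 26 and 31 UMIs, 0.824 (0.474 to 1.44).

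Genes induced by type I interferon were often higher in knockout T cells. Of 45 listed genes, 24 were measured, 11 were at least 1.5-fold higher and 0 lower, against the 12.1% and 14.0% of all genes, and the median log2 ratio was 0.53. The promoters of Isg15, Ifit3 and Ifi208 are shown because they belong to the genes with large ratios and to the same response, and hold the interferon-stimulated response element. Capitals mark GAAA, any 2 bases and GAAA again, or TTTC, any 2 bases and TTTC where the element lies on the other strand, in the 250 bases before each start (RefSeq, GRCm38.p6). Isg15 lies at chr4:156200819-156201068 on the minus strand, with 3 overlapping matches 78 to 57 bases before the start. Ifit3 lies at chr19:34583279-34583528 on the plus strand, with 2 matches 156 to 147 and 122 to 113 bases before the start. Ifi208 lies at chr1:173673415-173673664 on the plus strand, with 1 match 58 to 49 bases before the start.
Isg15: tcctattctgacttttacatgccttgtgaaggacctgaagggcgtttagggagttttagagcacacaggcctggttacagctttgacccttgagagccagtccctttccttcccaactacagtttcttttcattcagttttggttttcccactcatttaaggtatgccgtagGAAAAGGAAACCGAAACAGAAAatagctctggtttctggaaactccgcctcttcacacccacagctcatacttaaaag
Ifit3: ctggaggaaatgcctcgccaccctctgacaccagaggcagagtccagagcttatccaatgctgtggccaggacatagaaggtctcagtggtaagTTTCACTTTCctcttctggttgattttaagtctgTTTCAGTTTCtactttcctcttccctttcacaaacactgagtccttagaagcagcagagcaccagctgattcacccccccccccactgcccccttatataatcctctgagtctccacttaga
Ifi208: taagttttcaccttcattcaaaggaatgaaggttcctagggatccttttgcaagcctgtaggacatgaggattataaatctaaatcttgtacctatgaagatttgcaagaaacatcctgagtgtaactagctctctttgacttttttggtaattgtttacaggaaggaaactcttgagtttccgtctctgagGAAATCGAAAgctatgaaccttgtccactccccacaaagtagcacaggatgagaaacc
Of the measured interferon genes with a window, 10 of 19 hold the element (52.6%), against 3.46% of 27025 genes. The 10 include Bst2, Ifi213 and Trim30a. Irf7, Isg20, Xaf1 and Slfn2 are among the 9 without it, and Irf7 and Xaf1 were also over 1.5-fold higher. A match is a description of the sequence, and binding was not measured.

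Isg15, a small protein joined to other proteins like ubiquitin, had 42 UMIs in 20 WT cells (106 CPM) and 142 UMIs in 46 knockout cells (248 CPM), a ratio of 2.34 (1.65 to 3.38). Ifi208, a member of the PYHIN family of DNA sensors, had 18 UMIs in 16 cells and 71 in 51 cells, a ratio of 2.73 (1.61 to 4.86). Ifit3, which belongs to a family that blocks viral RNA, had 8 UMIs in 5 cells and 32 in 17 cells, a ratio of 2.76 (1.25 to 6.94). The counts lay over many cells in the knockout, and the cell with most held 9.86% of Isg15 UMIs, against 26.2% in the WT. After thinning, Isg15 was in 12 of 139 WT T cells (4.54% to 14.6%) and 27 of 144 knockout T cells (12.7% to 26.1%). Ifit3 was in 1 of these WT cells (0.0182% to 3.94%) and 7 of these knockout cells (1.98% to 9.76%). For each of these 2 genes the thinned intervals overlapped between genotypes. Irf7, the factor that amplifies the response, had a ratio of 1.74 (1.03 to 3.04), and Trim30a 1.72 (1.13 to 2.66).

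Other members differed less. Ifi27l2a, the member with most UMIs, was at 2068 and 2484 CPM, a ratio of 1.20 (1.10 to 1.31). Bst2, which tethers virus particles, had a ratio of 1.46 (1.16 to 1.84) and Slfn2 0.980 (0.752 to 1.28). Ifi208 and Ifi213 belong to a family of near copies, so the split of reads between them is uncertain. Genes induced mainly by interferon-gamma did not share the direction: of 7 measured, 2 were higher and 2 lower, and Irf1 had 29 and 18 UMIs, a ratio of 0.429 (0.224 to 0.799).

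Isg15 was higher in the knockout in the larger subsets and also outside T cells. Isg15 was at 195 CPM in WT and 611 in knockout cells with Cd4, at 104 and 206 in cells with Cd8a or Cd8b1, and at 65.9 and 206 in cells with none of these genes or Trdc. Cells with Trdc had 1 Isg15 UMI in the WT (121 CPM, 4 cells) and 4 in the knockout (60.2 CPM, 25 cells), too few to give a direction, and Ifit3 was at 0 in both. Its ratio was 7.58 (3.11 to 24.0) in Ncr1 barcodes, 3.4 in Csf1r barcodes, 4.53 in Pdgfra barcodes and 3.78 in Cdh5 barcodes, so it was not particular to T cells. At 1000 UMIs Isg15 was found in 3.28% of WT and 14.0% of knockout fibroblast-marked barcodes. How much free RNA added to the T cell counts was not tested. Medians of the whole list were 0.56 in Ncr1, 0.85 in Csf1r, 0.55 in Pdgfra and 0.84 in Cdh5 barcodes.

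Cell cycle genes were higher in knockout T cells. Of 20 measured, 16 were at least 1.5-fold higher and 0 lower, with a median log2 ratio of 0.94. Mki67, the proliferation antigen Ki-67, had 16 UMIs in 5 WT cells (40.5 CPM) and 73 in 22 knockout cells (128 CPM), a ratio of 3.15 (1.82 to 5.80). Top2a, the topoisomerase that untangles chromosomes, had 28 UMIs in 9 cells and 104 in 25 cells, 2.57 (1.68 to 4.05). Ube2c, which drives the exit from mitosis, had 17 and 106 UMIs, 4.31 (2.57 to 7.67), and Hmgn2, a chromatin protein, 48 and 247 UMIs, 3.56 (2.60 to 4.95). The 4 that stayed under 1.5-fold were Tuba1b, Dut, Tubb5 and H2az1.

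Cells with Mki67 were few and lay in different subsets. Without thinning, 3 WT and 3 knockout cells with Cd4 and no Cd8a or Cd8b1 had Mki67. With Cd8a or Cd8b1 and no Cd4, 1 of 63 WT and 8 of 44 knockout cells had it, and with none of Cd4, Cd8a, Cd8b1 and Trdc 1 of 75 and 9 of 58 did. In these unthinned counts the higher number in the knockout lay outside the cells with Cd4 alone. After thinning to 1000 UMIs Mki67 was found in 0 of 139 WT (0% to 2.62%) and 6 of 144 knockout cells (1.54% to 8.85%). It was in 0.681% and 2.38% of fibroblast-marked and 2.80% and 2.1% of macrophage-marked barcodes. Top2a was in 4 thinned WT (0.790% to 7.20%) and 11 knockout T cells (3.87% to 13.3%). Stmn1, with a ratio of 1.90 over all T cells, was in 12 (4.54% to 14.6%) and 15 (5.95% to 16.6%). For each of these 3 genes the thinned intervals overlapped between genotypes.

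Cell cycle genes differed in direction between Ncr1 barcodes and the other groups. The median log2 ratio of the list was -0.59 in Ncr1 barcodes, where 1 of 21 measured genes was higher and 10 lower, 0.40 in Csf1r barcodes and 1.31 in Pdgfra barcodes. It was 0.63 in Cdh5 barcodes, 1.21 in Cd79a barcodes and 0.77 in all filtered barcodes other than T cells. Mki67 had 22 and 29 UMIs in Ncr1 barcodes, a ratio of 0.649 (0.36 to 1.18). The difference between T cells and Ncr1 barcodes was not tested.

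**Figure D4:**
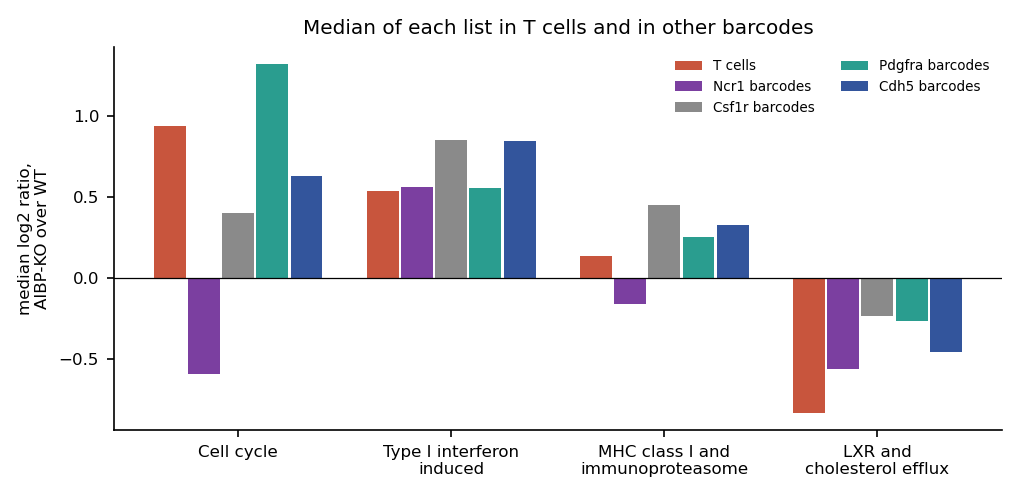
Median log2 ratio of knockout over WT for 4 gene lists in T cells and in barcodes marked by Ncr1, Csf1r, Pdgfra and Cdh5. The interferon list lies above 0 in every group shown (0.53 in T cells), and the cell cycle list is at 0.94 in T cells and at -0.59 in Ncr1 barcodes.

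Gzmb and Gzmk were higher in knockout T cells, and Gzma differed by less than 1.5-fold. Of 11 measured cytotoxic genes, 4 were at least 1.5-fold higher and 0 lower, with a median log2 ratio of 0.40. Gzmb had 40 UMIs in 22 WT cells (101 CPM) and 124 in 44 knockout cells (217 CPM), a ratio of 2.14 (1.49 to 3.14). In the knockout 29 of these UMIs were in 1 cell with both Cd4 and a Cd8 gene. Gzmk, a granzyme of memory CD8 cells, had 10 and 36 UMIs, 2.49 (1.21 to 5.62), and all 36 knockout UMIs lay in cells with Cd8a or Cd8b1. Without thinning, 16 of 44 such knockout cells had Gzmk, against 5 of 63 in the WT. After thinning, Gzmk was in 2 of 139 WT T cells (0.175% to 5.10%) and 6 of 144 knockout T cells (1.54% to 8.85%). Gzmb was in 14 of these WT cells (5.62% to 16.3%) and 21 of these knockout cells (9.26% to 21.4%). For each gene the thinned intervals overlapped between genotypes.

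Gzma depended on a few cells with NK cell transcripts. Its ratio over all T cells was 1.33 (1.07 to 1.65), from 133 and 255 UMIs. T cells with Klrb1c, Klra4, Klra8 or Klre1 numbered 8 in the WT and 21 in the knockout, and held 44 and 207 of these UMIs. Without them Gzma had 89 UMIs in 9 of 153 WT cells and 48 in 12 of 128 knockout cells, a ratio of 0.408 (0.281 to 0.587). This was the opposite direction in UMIs, from few cells, but not in the number of cells with Gzma. Klra7, an inhibitory receptor of the Ly49 family whose members are near copies, had 4 and 48 UMIs, 8.29 (3.04 to 31.7), with 4 and 43 of them in the same cells. Trac was found in 4 of the 8 and 17 of the 21 cells, Cd8a in 3 and 7, and Cd4 in none. Without these cells the cytotoxic list had a median of 0.07, against 0.40 with them, and the NK receptor list 0.05, against 0.57. The cells were picked by NK cell transcripts, and Klra4 and Klra8 are members of the NK receptor list. The fall of that list was therefore set in part by the choice of cells, and no conclusion is drawn from it. Gzmb without them had a ratio of 1.69.

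The other 2 cytotoxic genes past 1.5-fold were Srgn, a proteoglycan of the granules, at a ratio of 1.69, and the receptor gene Klrc1 at 1.71 (1.04 to 2.91). Ccl5, the cytotoxic list member with most UMIs and a chemokine of memory CD8 cells, was at 6574 CPM in WT and 5019 in knockout cells, a ratio of 0.764 (0.724 to 0.805). Within cells with Cd8a or Cd8b1 it was at 12962 and 12642 CPM. Ccl4 had a ratio of 0.672 (0.510 to 0.885), and Nkg7, a granule protein, 1.03 (0.904 to 1.16).

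Of the cytokines, Ifng had 26 UMIs in 20 WT cells and 60 in 34 knockout cells, a ratio of 1.59 (0.991 to 2.63) whose interval held 1. Tnf had 13 and 69 UMIs, 3.67 (2.01 to 7.23), and 1.53 without the Trdc cells. Within cells with Cd8a or Cd8b1 it had 5 and 3 UMIs, 0.615 (0.0955 to 3.16). Tnfsf10, which encodes the death ligand TRAIL, had a ratio of 0.451 (0.219 to 0.902). Il4, Il5, Il13 and Il21 were at 0 in both, and Il1rl1, the interleukin-33 receptor, had 9 and 1 UMIs.

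Regulatory T cells were too few to compare. Of 23 listed genes 5 were measured, 2 (Ctla4 and Capg) were higher and 0 lower. Of 10 measured Th1 genes 1, Ifng, was higher and 0 lower. Foxp3 had 6 UMIs in 4 cells of each genotype. Ikzf2, the factor Helios, was at 142 and 138 CPM, a ratio of 0.975 (0.684 to 1.40). Ctla4, an inhibitory receptor they carry, had 20 and 48 UMIs, 1.66 (0.966 to 2.95). Il2ra, the high-affinity chain of the interleukin-2 receptor, had 6 UMIs in 4 cells and 22 in 15.

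Of 12 measured cytokine receptors 0 were higher and 4 lower in knockout cells, with a median log2 ratio of -0.31. Of 9 chemokine and egress receptors 1 was higher and 2 lower (median -0.24), near the shares of all genes. Macrophage markers had a median of -1.15 in the same cells, and their part in these ratios was not tested. S1pr1, the receptor through which T cells leave tissue, had 50 UMIs in 36 WT cells and 33 in 28 knockout cells, 0.456 (0.285 to 0.722). Tgfbr2, a receptor of TGF-beta, had a ratio of 0.597 (0.402 to 0.884), Tnfrsf1b 0.569 (0.332 to 0.967) and Il21r 0.461 (0.217 to 0.95). Cx3cr1 had 39 and 20 UMIs, 0.354 (0.196 to 0.623), and this gene is also made by macrophages.

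Genes of naive and memory cells were mixed. Of 14 naive and central memory genes 2 were higher and 2 lower, and Tcf7, the factor of naive and stem-like T cells, was at 187 and 131 CPM, 0.70 (0.501 to 0.979). Of 18 effector and memory genes 2 were higher and 1 lower. Lgals1, galectin-1, was at 1435 and 2584 CPM, 1.80 (1.63 to 1.99), Anxa1 had 2.24 (1.46 to 3.53), and Ahnak, a scaffold for calcium channels, 0.620 (0.526 to 0.731). Cd69, which holds cells in tissue, had 61 UMIs in 46 cells and 127 in 70, 1.44 (1.05 to 1.99). Without the cells with Trdc it was at 158 CPM in WT and 170 in knockout T cells. Of 9 residency genes 0 passed 1.5-fold.

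**Figure D5:**
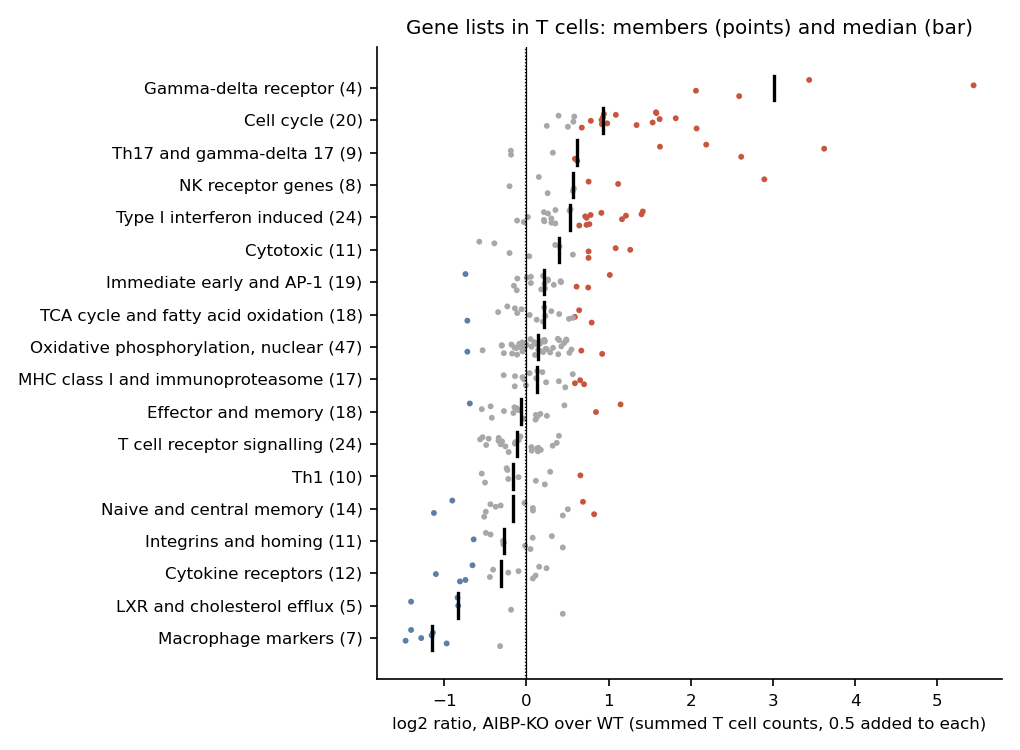
Log2 ratio of knockout over WT of each measured member of 18 gene lists in T cells, with the median of each list as a bar and members past 1.5-fold in colour. The gamma-delta receptor and cell cycle lists lie highest (medians 3.02 and 0.94), and T cell receptor signalling lies near 0 (-0.11).

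Genes of sterol efflux were lower, as far as they were measured. AIBP is known for raising cholesterol efflux from cells, so genes that the LXR receptors induce were listed. Of 14 genes 5 were measured, 0 were higher and 3 lower, with a median log2 ratio of -0.83. Arl4c, a small GTPase of this set, had 91 UMIs in 60 WT cells and 74 in 56 knockout cells, 0.562 (0.408 to 0.772), and the transporter gene Abcg1 had 31 and 25 UMIs, 0.557 (0.315 to 0.975). Apoe was at 2352 and 889 CPM, 0.378 (0.339 to 0.421), but it is a gene of macrophages, and the macrophage markers had a median of -1.15 in the same cells. Without cells over 2% other-lineage UMIs the list's median was -0.29. The list was also below 0 in Ncr1 (-0.56), Csf1r (-0.24), Pdgfra (-0.27) and Cdh5 barcodes (-0.46). Of cholesterol synthesis and uptake genes 4 of 23 were measured, 1 higher and 1 lower.

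Energy metabolism was at like levels. Of 47 nuclear oxidative phosphorylation genes 2 were higher and 1 lower (median 0.14), of 12 glycolysis genes 0 and 1 (0.19), and of 13 mitochondrially encoded genes 1 and 1 (0.00). Of 20 genes of NAD(P)HX repair and NAD metabolism, the set Naxe belongs to, 3 were measured, and Parp1 and Parp14 had ratios of 0.631 and 1.69. Of 17 genes of MHC class I and the immunoproteasome 3 were higher and 0 lower (median 0.13), and Psme2, part of the proteasome activator, had 91 and 215 UMIs, 1.63 (1.27 to 2.11).

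The genes with the ratios farthest from 1 over all genes, by the bound of the interval nearest 1, were mostly in few cells. Higher were Trdc, Il17a, Klra7, Scart1, Hmgn2 and Ube2c, described above, together with Nppc, Ptn, Tagln, Acta2, Tpm2 and Myl9. Nppc, which encodes C-type natriuretic peptide, had 34 UMIs in 5 knockout cells and 0 in the WT, and 1 cell held 52.9% of them. Ptn had 16 and 145 UMIs, with 66.9% of the knockout UMIs in 1 cell. The contractile genes Acta2 (58 and 266 UMIs in 11 and 13 cells) and Tagln (10 and 90 UMIs in 6 and 10 cells) are genes of smooth muscle, and Acta2 had a ratio of 3.17, and of 1.93 without cells over 2% other-lineage UMIs.

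On the lower side, the chemokine gene Ccl17 had 64 UMIs in 2 WT cells, 98.4% in 1, and 0 in the knockout, and Ccl1 had 37 and 0 UMIs, with 75.7% in 1 WT cell. Tnxb, Islr, Pam, Mgp, Cd248 and Clec3b, genes of fibroblasts and matrix, had ratios from 0.0768 to 0.299, in 14 WT cells or fewer. These genes were kept by their WT level, and Tnxb, Islr, Pam, Mgp and Clec3b were over 10 times higher in knockout Pdgfra barcodes (380, 608, 190, 2352 and 914 CPM) than in knockout T cells. Cd209a, of dendritic cells, had 22 and 4 UMIs, and Nrgn 22 and 3, with 86.4% of the WT UMIs in 1 cell. Wfdc17, of macrophages, had 114 UMIs in 46 WT cells and 48 in 16 knockout cells, 0.291 (0.203 to 0.411), and was at 2863 and 1307 CPM in Csf1r barcodes. The part of other cells' RNA in these genes was not tested beyond the values given.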

How the data were processed

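Per the labels' protocols, collagenase D freed the cells of the adductor muscle, and 10x libraries with cell barcodes and UMIs were made from them. The authors deposited 1 matrix per library of raw counts (UMIs) by gene and barcode, without normalization. Cell Ranger made them: the submitters' processing notes name version 2.1.1 and the file headers name 5.0.0, a conflict that was not settled. As no build is named for the matrices (not given in the sources used here), promoter coordinates are those of RefSeq tables of GRCm38.p6.

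From the counts, levels were computed as UMIs summed over the T cells of a library, in CPM of their total over all 32574 genes in the files. Ratios carry exact conditional binomial intervals, CPM limits are Poisson and shares carry Clopper-Pearson intervals, all at 95%. A group at 0 was set at 3 counts. Log2 ratios had 0.5 counts added to both. Genes at 50 CPM or more in either library counted as measured, and 1.5-fold as higher or lower. With 1 library per genotype no test was run. Doublets were kept in the main values and called with Scrublet. The other cell groups carried 1 excluding gene and under 2 of the 4 T cell genes. The members and the gene lists were chosen with earlier results of these data known.

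Genes were named from the lists or as the 12 highest and 12 lowest ratios by the interval bound nearest 1, without ribosomal, mitochondrial, haemoglobin, sex-linked, clone-named, V, D and J segment and rule genes, and without genes at 10 times the T cell level or more in another group, judged in the library where T cells had the higher level. Some of the genes so chosen are not reported here. Alternatives were the number of T cell genes, the excluding genes, depth, mitochondrial and gene limits, doublets, CPM limits, scaling and weighting of cells, and cells within Cd8. Others, chosen after seeing the data, left out cells with other-lineage, NK or Trdc transcripts, or used another thinning seed. Scripts were tested on simulated data. Python 3.11.15, numpy 2.4.6, scipy 1.17.1, pandas 2.3.3, scanpy 1.11.5 and matplotlib 3.10.9 were used.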

Additional observations from a re-analysis of the deposited data

Results flagged for a closer look

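Barcodes with at least 2 of the 4 T cell genes that were left out because they had Ncr1 made up 0.175% of filtered knockout barcodes (0.0998 to 0.283), 16 in number, and 0.00723% of filtered WT barcodes, 1 in number. They are data outside the T cells described. All 16 had Cd3d and Cd3g, 7 had Cd3e and 5 had Trac, 12 had Trbc2, and 12 each had the NK cell genes Klrb1c and Klre1. Cd4 and Cd8a were found in none of them. Their median depth was 4458.5 UMIs, above that of the knockout T cells.

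Cell cycle genes had a median log2 ratio of 0.94 in T cells and -0.59 in barcodes with Ncr1, so the genotypes differed in opposite directions in these groups of cells. The difference was not tested. The median over all genes measured was -0.15 in the barcodes with Ncr1 and -0.02 in T cells.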

How the results depend on the processing

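The direction of the T cell share, the interferon, cell cycle, cytotoxic and sterol efflux medians was the same under every alternative run: the interferon median ran from 0.39 to 0.66, cell cycle from 0.85 to 2.17 (2.17 within Cd8 cells), cytotoxic from 0.07 to 0.66 and sterol efflux from -0.83 to -0.29. The T cell receptor signalling median ran from -0.19 to 0.25. T cells were 0.781% of WT and 1.35% of knockout barcodes with at least 3 of the 4 genes, 1.59% and 2.14% with at least 1, 1.72% and 2.26% without excluding genes, and 0.846% and 1.29% when thinned before the rule. Cd4 cells in the knockout were 14.1% unthinned, 7.14% at 1500 UMIs, 8.26% with at least 3 genes and 8.13% without cells with NK transcripts. No knockout cell with NK transcripts had Cd4, so leaving them out removed no Cd4 cell. The step from 2.78% to 8.13% therefore came mostly with a new random draw of the thinning. Cd8 cells in the WT were 39.1% unthinned and 35.3% at 1500 UMIs and with at least 3 genes. Foxp3 cells in the WT were 0% without cells with NK transcripts. No WT cell with Foxp3 had these transcripts, so none was left out, and the 2 thinned cells were lost in the new draw. Trdc cells in the WT were 0% at a mitochondrial limit of 5%. Genes at least 1.5-fold higher and lower numbered 721 and 823 after thinning, 1002 and 1363 at 20 CPM, 176 and 151 at 100 CPM, and 789 and 851 within Cd8 cells. The Th17 and gamma-delta 17 median was 1.33 after thinning and 1.37 when each cell had the same weight, and turned to -0.50 without Trdc cells and to -1.91 within Cd8 cells, where 5 and 3 genes were measured. Without Trdc cells Il17a had a ratio of 0.255 (3 and 1 UMIs). Within Cd8 cells Tnf had 0.615 (5 and 3 UMIs) and Ptn 0.158 (13 and 2 UMIs). Except where a value shows it, the cause was not tested. Values within Cd4 cells were not run, with 77003 WT and 86688 knockout UMIs against a minimum of 100000. The alternatives that leave out NK, Trdc or other-lineage cells, and another thinning seed, were chosen after seeing the data. No paired analysis was possible because each genotype has 1 library.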
